A study of Mus musculus with 8 samples.

Results

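The nuclear genes for the subunits of respiratory chain complexes I to V were followed across the striatum of 8 mice. Members were genes whose symbols carry the subunit names of complex I (Ndufa, Ndufb, Ndufc, Ndufs and Ndufv), complex II (Sdha, Sdhb, Sdhc and Sdhd), complex III (Uqcr names and Cyc1), complex IV (Cox4 through Cox8 names) or complex V (Atp5 names). Each gene was read from 1 probe set that names it alone, the one with the highest mean, and needed a mean log2 value of at least 5.25 over the 8 arrays. Of 82 genes with such names, 81 reached that level, out of 14883 genes measured in the same way. The 81 comprised 35 genes of complex I, 4 of complex II, 9 of complex III, 16 of complex IV and 17 of complex V. The gene just below the level was Cox7b2, with a mean of 5.10, and the lowest member was Cox8c, with a mean of 6.11. Grouping followed the symbols, so Ndufa4, whose protein is now placed in complex IV, was counted with complex I, and Cox7a2l, a factor that joins complexes into supercomplexes, was counted with complex IV.

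All animals were male C57BL/6 mice, an inbred laboratory strain, 6 weeks old at the start, and each of the 4 groups held 2 mice with 1 array each. Control mice were injected with saline daily for 4 weeks. The other 3 groups received MPTP, a neurotoxin used to model Parkinson's disease, at 20 mg/kg every 24 h for 4 weeks. No needles were used in the MPTP group. In acupoint mice, needles were inserted on both sides to 3 mm at GB34 and 1 mm at LR3, and in non-acupoint mice to 3 mm in the hips, over 14 sessions held 48 h apart. Both needled groups thus carried MPTP too, and no group was needled without it. The comparisons ask how the transcripts of the chain stood after MPTP, and whether needling, or its site, went with a difference.

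The respiratory chain sits in the inner mitochondrial membrane. Complex I takes electrons from NADH and complex II from succinate, complexes III and IV carry them to oxygen, and complex V uses the resulting proton gradient to make ATP. MPTP is converted by monoamine oxidase B to an ion that dopamine neurons take up through the dopamine transporter, and inside mitochondria this ion inhibits complex I. The dopamine axons that end in the striatum come from cell bodies in the midbrain, so most messenger RNA of the striatum belongs to its own neurons and glia. In tissue RNA, fewer cells of a type and less RNA per cell cannot be told apart.

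Complex IV holds several pairs of subunit genes, one used in most tissues and one known from heart and skeletal muscle, and the members that varied most across the arrays were 3 of these muscle forms (Cox6a2, Cox7a1 and Cox8b). The bases just before the transcription start of the pairs are shown, searched for motifs known from nuclear genes of the chain. Each window holds the 250 bases before the start, 5′ to 3′ on the gene's strand, from RefSeq (build GRCm38.p6), and capitals mark motif matches on either strand. Cox6a2 was not among the windows.
Cox6a1 (chr5:115348959-115349208, minus strand): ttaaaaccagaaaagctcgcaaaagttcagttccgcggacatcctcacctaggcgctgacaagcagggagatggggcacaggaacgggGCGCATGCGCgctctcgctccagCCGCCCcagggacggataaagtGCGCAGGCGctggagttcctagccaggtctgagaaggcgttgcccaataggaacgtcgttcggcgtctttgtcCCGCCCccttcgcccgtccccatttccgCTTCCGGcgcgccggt
Cox7a2 (chr9:79759854-79760103, minus strand): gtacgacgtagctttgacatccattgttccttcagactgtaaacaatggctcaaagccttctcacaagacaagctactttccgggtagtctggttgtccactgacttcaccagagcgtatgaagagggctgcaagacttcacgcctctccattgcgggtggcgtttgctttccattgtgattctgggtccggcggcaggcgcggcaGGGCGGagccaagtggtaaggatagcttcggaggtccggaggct
Cox8a (chr19:7217617-7217866, minus strand): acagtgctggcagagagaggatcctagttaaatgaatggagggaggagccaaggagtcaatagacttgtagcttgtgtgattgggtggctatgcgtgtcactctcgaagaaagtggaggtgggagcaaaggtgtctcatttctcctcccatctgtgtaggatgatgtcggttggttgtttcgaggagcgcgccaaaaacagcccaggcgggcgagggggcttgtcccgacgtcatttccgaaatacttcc
Cox7a1 (chr7:30183921-30184170, plus strand): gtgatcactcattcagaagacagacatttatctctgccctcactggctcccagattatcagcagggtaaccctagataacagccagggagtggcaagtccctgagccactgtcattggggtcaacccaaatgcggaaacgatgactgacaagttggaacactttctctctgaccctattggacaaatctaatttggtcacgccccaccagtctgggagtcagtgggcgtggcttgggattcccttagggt
Cox8b (chr7:140900447-140900696, minus strand): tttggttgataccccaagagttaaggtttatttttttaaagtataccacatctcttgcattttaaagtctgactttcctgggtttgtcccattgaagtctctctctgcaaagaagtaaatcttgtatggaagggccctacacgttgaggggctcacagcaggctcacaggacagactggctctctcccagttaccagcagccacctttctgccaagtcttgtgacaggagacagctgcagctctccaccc
The motifs searched, on both strands, were the core of the NRF1 site (GCGCANGCG), the core of the ETS family site bound by GABPA (CCGGAAG), a YY1 core (AANATGGCG), an estrogen-related receptor core (AAGGTCA) and the Sp1 GC box (GGGCGG). The Cox6a1 window held the NRF1 core at positions -162 and -117 from the start, the first overlapping a match on the opposite strand at -161, an ETS core at -16 and Sp1 boxes at -139 and -44. The Cox7a2 window held an Sp1 box at -44. In Cox8a, an ETS core crossed the start from position -5 and another began at position 32, so neither lies whole within the bases printed. None of these letters occurred in the windows of Cox7a1 and Cox8b, which says nothing about the factors themselves.

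Across the whole module, windows of 300 bases (250 before and 50 after the start) were at hand for 65 of the 81 members, 70 windows in all. The NRF1 core was in 28.6% of them, against 6.25% of all 32851 windows of the same length. The ETS core was in 24.3% against 8.86%, the YY1 core in 14.3% against 2.38%, the estrogen-related receptor core in 10.0% against 4.72%, and the Sp1 box in 38.6% against 35.7%. By complex, the NRF1 core was in 24.2% of 33 windows of complex I, 66.7% of 3 of complex II, 40.0% of 5 of complex III, 9.09% of 11 of complex IV and 38.9% of 18 of complex V, and differences between complexes were not tested. The median GC content of the 250 bases before the start was 56.2% in the members' windows and 52.4% in all windows. These shares describe the letters and are no test of binding.

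The arrays of 1 group did not hold the same tissue mixture by their markers. Ppp1r1b, a phosphoprotein of striatal projection neurons, read 11.42 and 11.32 in controls, 8.97 and 11.65 in MPTP, 11.21 and 11.55 in acupoint and 11.14 and 10.65 in non-acupoint mice. The mean of the 9 projection neuron markers was 10.92 and 10.90 in controls, 8.83 in MPTP mouse 1 and 10.29 in non-acupoint mouse 2, with 0 of 9 above both controls in either of these MPTP-treated mice, and 10.78 to 11.29 on the other 4 arrays. In MPTP mouse 1 it was -2.08 relative to the controls on the log2 scale. The mean of 12 markers of thalamus, septum and pallidum stood 1.99 above the controls in MPTP mouse 1, 1.45 above in non-acupoint mouse 2 and between -0.68 and 0.71 elsewhere. The mean of 9 choroid plexus markers stood 2.31 to 2.98 above the controls in MPTP mouse 1, acupoint mouse 1 and both non-acupoint mice, against -0.19 in MPTP mouse 2 and 0.19 in acupoint mouse 2. The part of this mixture in the results was not tested. Values printed with the markers as covariate come from alternative fits and are no test of it.

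The respiratory chain transcripts spanned less across the arrays than most genes did. Over the 8 arrays, 70 of 81 members (86.4%) spanned less than 0.5 on the log2 scale, against 61.7% of all genes, and the median span was 0.34 against 0.43. Their array signal was also higher (median of the gene means 9.94 against 7.57 over all genes), and its part in the span was not tested. Only 3 members, all of complex IV, spanned more than 1 (3.7% against 7.32% of all genes), namely Cox6a2 (1.72), Cox8b (1.64) and Cox7a1 (1.13). Between the 2 mice of a group the median difference of a member was 0.060 in controls, 0.16 in MPTP, 0.11 in acupoint and 0.076 in non-acupoint mice. The same figure over all genes was 0.096, 0.21, 0.13 and 0.12.

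MPTP mouse 1 carried the highest value for most members. It was the top array for 51 of 81 members, while it was the top array for 27.7% of all genes. The members' median there lay 0.157 above the controls, and 62 of 81 members were above both controls (76.5%, against 44.9% of all genes) and 11 below both (36.2% of all genes). In MPTP mouse 2 the median was 0.021, with 35 members above (38.7% of all genes) and 26 below (32.7%). The 2 MPTP mice therefore did not show the same picture.

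In needled mice the members' medians lay between -0.060 and 0.035 around the controls. In acupoint mouse 1 the members' median was -0.016, with 24 above both controls (31.4% of all genes) and 33 below (38.8%), and in acupoint mouse 2 it was 0.035, with 41 above (29.5%) and 20 below (43.6%). In non-acupoint mouse 1 the median was -0.060, with 14 members above (38.6%) and 49 below (33.3%), and in non-acupoint mouse 2 it was -0.044, with 25 above (42.3%) and 40 below (39.6%). The lowest array of a member was a non-acupoint array in 22 cases for mouse 1 and 21 for mouse 2, while 6.81% and 15.9% of all genes had their lowest value there.

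**Figure D1:**
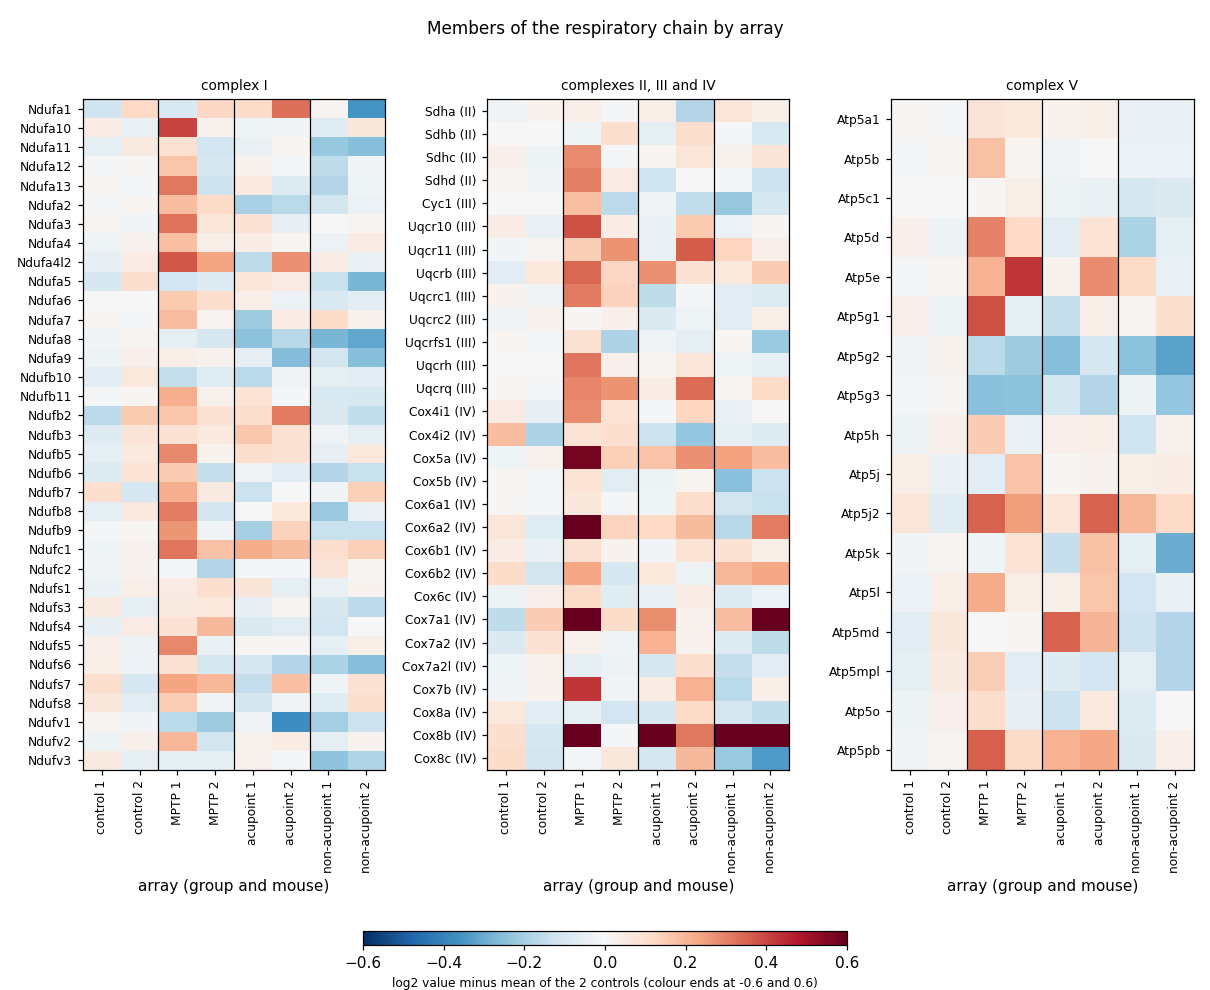
Each row is 1 of the 81 members and each column 1 array, coloured by the log2 value minus the mean of the 2 controls (colour ends at -0.6 and 0.6). The column of MPTP mouse 1 is mostly red (62 of 81 members above both controls), the non-acupoint columns are mostly blue (49 and 40 members below both), and Cox8b, Cox6a2 and Cox7a1 reach the end of the scale.

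In no comparison did a member pass the threshold of an adjusted p under 0.05 in limma, a linear model fitted to all probe sets at once, and neither did any other probe set (0 of 16335, or 0.0%, in each of the 6 comparisons). At an unadjusted p under 0.05, MPTP against control gave 4 members higher (4.94%) and 1 lower (1.23%), against 2.11% and 1.89% of all probe sets. Acupoint against control gave 1 higher and 0 lower, against 0.618% and 1.3% of all probe sets, and non-acupoint against control gave 0 higher and 2 lower, against 3.76% and 2.3%. Acupoint against MPTP gave 1 higher and 2 lower (1.04% and 2.56% of all probe sets). Non-acupoint against MPTP gave 0 higher and 4 lower (3.51% and 3.07%), and acupoint against non-acupoint gave 5 higher and 0 lower (1.1% and 2.12%). These comparisons share arrays, so their counts are not separate evidence.

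The members' median change on the log2 scale was 0.075 for MPTP against control, with 68 of 81 above 0, while the median of all genes was 0.017 with 54.8% above 0. It was 0.011 (48 above 0) for acupoint against control and -0.054 (24 above 0) for non-acupoint against control. All genes had medians of -0.020 and 0.006 there, with 43.3% and 51.3% above 0. The members' median was -0.075 (16 above 0) for acupoint against MPTP and -0.146 (8 above 0) for non-acupoint against MPTP. All genes were at -0.041 and -0.008, with 39.3% and 48.1% above 0. Between the needling sites, acupoint minus non-acupoint, the members' median was 0.075 with 59 above 0. Over all genes it was -0.032, with 41.2% above 0. Without MPTP mouse 1 the median for MPTP against control was 0.021, for acupoint against MPTP 0.012 and for non-acupoint against MPTP -0.072. Without MPTP mouse 2 the same medians were 0.157, -0.155 and -0.211. The size of each median that involves the MPTP group thus moved with which mouse stood for it, and that for acupoint against MPTP also turned its sign. Without acupoint mouse 2 the median between the needling sites was 0.038, and that for acupoint against control was -0.016.

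**Figure D2:**
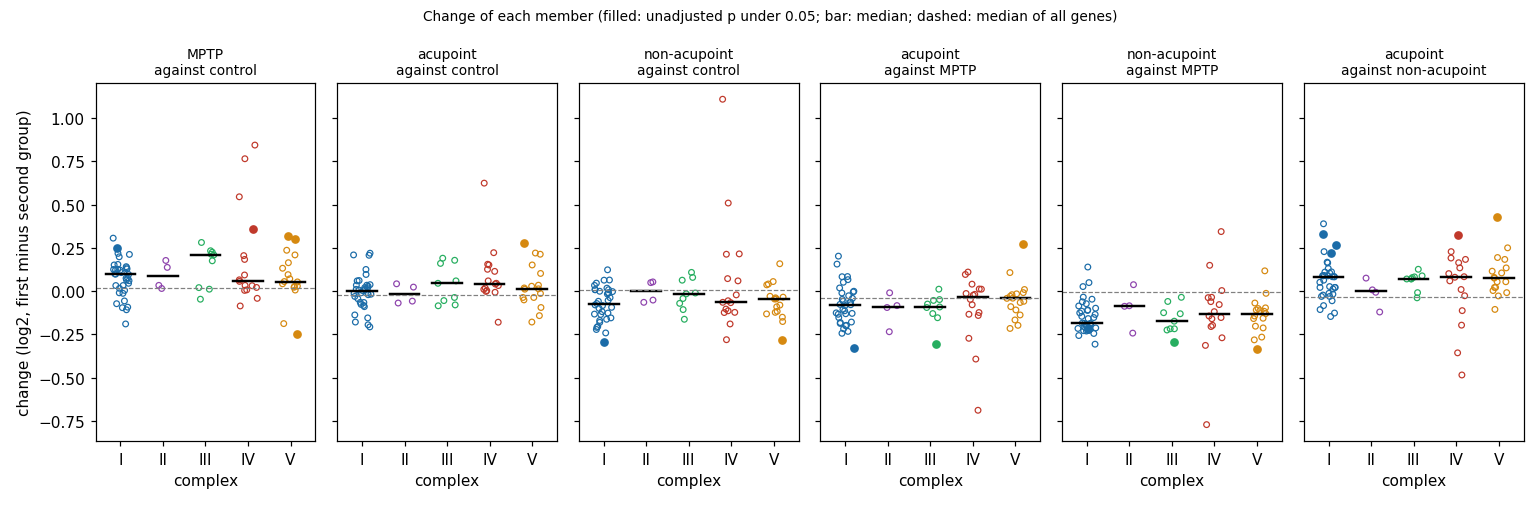
Each point is 1 member's log2 change (first minus second group), in 6 panels for the 6 comparisons and in columns by complex; filled points have an unadjusted p under 0.05, bars are medians of a complex and dashed lines the median of all genes. For MPTP against control all 5 bars lie above the dashed line at 0.017, and for non-acupoint against MPTP all 5 lie below the one at -0.008.

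Complex I, the target of the MPTP metabolite, had a median change of 0.096 over its 35 members for MPTP against control. Of these members, 27 were above 0 (77.1%, against 54.8% of all genes), and the other complexes had medians of 0.055 to 0.209. In MPTP mouse 1 the complex I median was 0.166 above the controls, with 28 above both (44.9% of all genes) and 5 below (36.2%). In MPTP mouse 2 it was 0.020, with 13 above (38.7%) and 14 below (32.7%). For non-acupoint against control the complex I median was -0.072, with 9 above 0 (51.3% of all genes). No measured member of its catalytic core, which binds the flavin and the iron-sulfur clusters, had an unadjusted p under 0.05. Ndufs1, which carries several of the clusters, read 10.47 and 10.56 in controls, 10.56 and 10.61 in MPTP, 10.59 and 10.46 in acupoint and 10.47 and 10.53 in non-acupoint mice. Ndufv1, which binds NADH and the flavin, read 10.12 and 10.08 in controls, 9.94 and 9.89 in MPTP, 10.09 and 9.73 in acupoint and 9.90 and 9.97 in non-acupoint mice. Both MPTP and both non-acupoint arrays of Ndufv1 lay below both controls. Its change for MPTP against control was the lowest of complex I at -0.19 (SE 0.13, limma unadjusted p = 0.191), and non-acupoint against control was -0.16 (SE 0.13, unadjusted p = 0.253). Ndufs7, at the end of the cluster chain next to ubiquinone, went the other way, at 10.60 and 10.40 in controls and 10.74 and 10.70 in MPTP mice (change 0.22, SE 0.14, unadjusted p = 0.158). Among other core members, Ndufs3 spanned 10.73 to 10.96, Ndufs8 9.67 to 9.93 and Ndufv2 10.75 to 11.05.

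Accessory subunits of complex I gave the unadjusted calls. Ndufc1, a small subunit of the membrane arm, read 9.70 and 9.76 in controls, 10.05 and 9.91 in MPTP, 9.95 and 9.92 in acupoint and 9.83 and 9.87 in non-acupoint mice. All 6 arrays of MPTP-treated mice were above both controls, and MPTP against control was 0.25 (SE 0.096, limma unadjusted p = 0.0367, adjusted p = 0.933). Its other probe set gave 0.23 in the same comparison (unadjusted p = 0.101). Ndufa8, an accessory subunit on the intermembrane space side, read 10.07 and 10.10 in controls, 10.03 and 9.99 in MPTP, 9.84 and 9.92 in acupoint and 9.81 and 9.77 in non-acupoint mice. All 6 MPTP-treated arrays were below both controls, with the needled mice lowest, and non-acupoint against control was -0.295 (SE 0.090, limma unadjusted p = 0.0137, adjusted p = 0.768). With the choroid plexus markers as a covariate, an alternative added after the data were seen, that change was -0.272.

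Ndufa2, an accessory subunit of the arm that faces the matrix, gave the smallest unadjusted p of complex I. It read 9.12 and 9.14 in controls, 9.31 and 9.24 in MPTP, 8.93 and 8.96 in acupoint and 9.02 and 9.09 in non-acupoint mice. Both acupoint arrays lay below every other array, and both MPTP arrays above every other array. Acupoint against MPTP was -0.33 (SE 0.091, limma unadjusted p = 0.0084, adjusted p = 0.902), and -0.294 and -0.365 without MPTP mouse 1 and mouse 2. Non-acupoint against MPTP was -0.22 (unadjusted p = 0.044).

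Between the needling sites, 3 of 35 complex I members (8.57%) were higher at the acupoints at an unadjusted p under 0.05, and 1.1% of all probe sets were. Ndufa5, an accessory subunit of the matrix arm, read 9.22 and 9.20 in acupoint and 9.01 and 8.87 in non-acupoint mice, beside 9.05 and 9.25 in controls (difference 0.265, SE 0.11, limma unadjusted p = 0.0437, adjusted p = 0.964). Ndufb2, of the membrane arm, read 7.60 and 7.81 against 7.41 and 7.35 (0.33, SE 0.14, unadjusted p = 0.0454), and both non-acupoint arrays lay between the controls at 7.34 and 7.65. Ndufv3, a small partner of the flavoprotein, read 8.32 and 8.29 against 8.06 and 8.12 (0.22, SE 0.092, unadjusted p = 0.0492), and here the controls at 8.35 and 8.25 sat with the acupoint mice. Ndufa1, a membrane arm subunit, had the largest difference of complex I (0.39, SE 0.17, unadjusted p = 0.0546) and varied most within it, from 8.42 in non-acupoint mouse 2 to 9.11 in acupoint mouse 2. The opposite extreme was Ndufa7, at 7.14 and 7.41 in acupoint and 7.47 and 7.38 in non-acupoint mice, which overlapped (-0.15, SE 0.12, unadjusted p = 0.268).

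Ndufa4l2, a relative of Ndufa4 known to be induced by low oxygen, was the complex I name with the largest change after MPTP. It read 6.03 and 6.12 in controls, 6.45 and 6.31 in MPTP, 5.92 and 6.35 in acupoint and 6.12 and 6.03 in non-acupoint mice. The MPTP arrays lay above both controls (0.31, SE 0.15, limma unadjusted p = 0.0841), and the 2 acupoint arrays lay on either side of them.

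Complex II, the succinate dehydrogenase that is also an enzyme of the citric acid cycle, held the fewest genes, and none had an unadjusted p under 0.05 in any comparison. Sdha, the flavoprotein that oxidises succinate, read 11.76 and 11.80 in controls, 11.82 and 11.77 in MPTP, 11.82 and 11.61 in acupoint and 11.85 and 11.81 in non-acupoint mice. Sdhb, the iron-sulfur subunit, spanned 9.09 to 9.28. Sdhd, a membrane anchor, was high in MPTP mouse 1 alone, at 9.60 against 9.18 to 9.35 on the other arrays, and Sdhc, the other anchor, likewise at 9.70 against 9.39 to 9.49.

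Complex III had the largest median of the 5 complexes after MPTP, 0.209 over 9 members with 8 above 0. As in the other complexes, its size came mostly from MPTP mouse 1. In that mouse the complex III median was 0.292 above the controls, with 8 of 9 members above both (88.9%, against 44.9% of all genes). In MPTP mouse 2 it was 0.046, with 7 above (77.8%, against 38.7%) and 2 below (22.2%, against 32.7%). The medians of MPTP mouse 1 and mouse 2 were 0.161 and 0.022 in complex II and 0.104 and -0.010 in complex IV. They were 0.148 and 0.035 in complex V. Uqcrc1, a core protein, read 11.05 and 11.01 in controls, 11.34 and 11.16 in MPTP, 10.87 and 11.02 in acupoint and 10.97 and 10.94 in non-acupoint mice. Both MPTP arrays were above all other arrays. Acupoint against MPTP was -0.305 (SE 0.11, limma unadjusted p = 0.0236, adjusted p = 0.902) and non-acupoint against MPTP -0.296 (SE 0.11, unadjusted p = 0.0267, adjusted p = 0.735), while the needled groups differed from control by -0.080 and -0.071. Its partner Uqcrc2 spanned only 11.41 to 11.53.

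Uqcrq, a small subunit near the ubiquinone pocket, read 9.08 and 9.05 in controls, 9.36 and 9.34 in MPTP, 9.11 and 9.40 in acupoint and 9.08 and 9.17 in non-acupoint mice. The MPTP mice gave nearly the same value (change 0.28, SE 0.12, limma unadjusted p = 0.0507), and all 6 MPTP-treated arrays were above both controls, though by as little as 0.005. Uqcrfs1, the Rieske iron-sulfur protein, and Cyc1, the cytochrome that hands electrons to cytochrome c, had MPTP arrays on both sides of the controls. Uqcrfs1 read 8.55 and 8.53 in controls and 8.63 and 8.36 in MPTP mice, and Cyc1 10.24 and 10.24 against 10.42 and 10.08.

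Complex IV carried both steady subunits and the most variable members. Cox4i1, the regulatory subunit of most tissues, read 10.73 and 10.63 in controls, 10.96 and 10.76 in MPTP, 10.67 and 10.81 in acupoint and 10.63 and 10.68 in non-acupoint mice. Cox5b spanned 11.01 to 11.34 and Cox6c 11.60 to 11.79, and neither had an unadjusted p under 0.05 with its brighter probe set. For non-acupoint against control the brighter set of Cox5b gave -0.19 (limma unadjusted p = 0.103). Its other set gave -0.25 there (limma unadjusted p = 0.0473). Cox4i2, known from lung, lay between 6.41 and 6.83, a span of 0.42 beside a median of 0.34 over the members. Cox6b2, known from testis, lay between 6.10 and 6.44, and its common partner Cox6b1 between 10.28 and 10.42. The signal of Cox4i2 and Cox6b2 was low, as the array medians over all probe sets were 6.02 to 6.12. Cox5a, a subunit on the matrix side, read 9.91 and 9.96 in controls, 10.51 and 10.07 in MPTP, 10.10 and 10.21 in acupoint and 10.18 and 10.12 in non-acupoint mice. All 6 MPTP-treated arrays were above both controls, by at least 0.11. MPTP against control was 0.36 (SE 0.15, limma unadjusted p = 0.0472, adjusted p = 0.933), 0.141 without MPTP mouse 1 and 0.573 without MPTP mouse 2, and the needled groups stood 0.22 and 0.21 above control (unadjusted p = 0.177 and 0.194). Cox8c, known from testis, read 6.06 and 6.35 in acupoint against 5.94 and 5.82 in non-acupoint mice (0.33, SE 0.14, limma unadjusted p = 0.0477, adjusted p = 0.964). Its mean of 6.11 was also near the array medians, and the part of low signal in this difference was not tested.

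The muscle forms of complex IV subunits spanned more than their common partners. Cox8b read 5.70 and 5.50 in controls, 7.14 and 5.58 in MPTP, 6.53 and 5.91 in acupoint and 6.40 and 7.01 in non-acupoint mice. MPTP mouse 1 and non-acupoint mouse 2 were highest, MPTP mouse 2 lay between the controls, and all 4 needled arrays were above both controls. Its partner Cox8a stayed between 10.69 and 10.95 on all 8 arrays. Non-acupoint against control was the largest change of any member, 1.11 for Cox8b (SE 0.49, limma unadjusted p = 0.0582, adjusted p = 0.768). Acupoint against control was 0.62 (SE 0.49, unadjusted p = 0.243) and MPTP against control 0.77 (SE 0.49, unadjusted p = 0.162).

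Cox6a2 was set apart by a single animal. It read 7.12 and 6.97 in controls, 8.60 and 7.18 in MPTP, 7.17 and 7.24 in acupoint and 6.88 and 7.36 in non-acupoint mice. MPTP mouse 1 was 1.56 above the controls' mean and every other array lay between 6.88 and 7.36, while its partner Cox6a1 lay between 10.37 and 10.61 throughout. MPTP against control was 0.84 (SE 0.41, limma unadjusted p = 0.0813). Cox7a1 read 6.33 and 6.64 in controls, 7.47 and 6.60 in MPTP, 6.77 and 6.51 in acupoint and 6.67 and 7.32 in non-acupoint mice, so its high arrays were MPTP mouse 1 and non-acupoint mouse 2. Its partner Cox7a2 lay between 9.66 and 10.02. MPTP against control was 0.545 for Cox7a1 (SE 0.32, unadjusted p = 0.135) and non-acupoint against control 0.51 (SE 0.32, unadjusted p = 0.158).

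**Figure D3:**
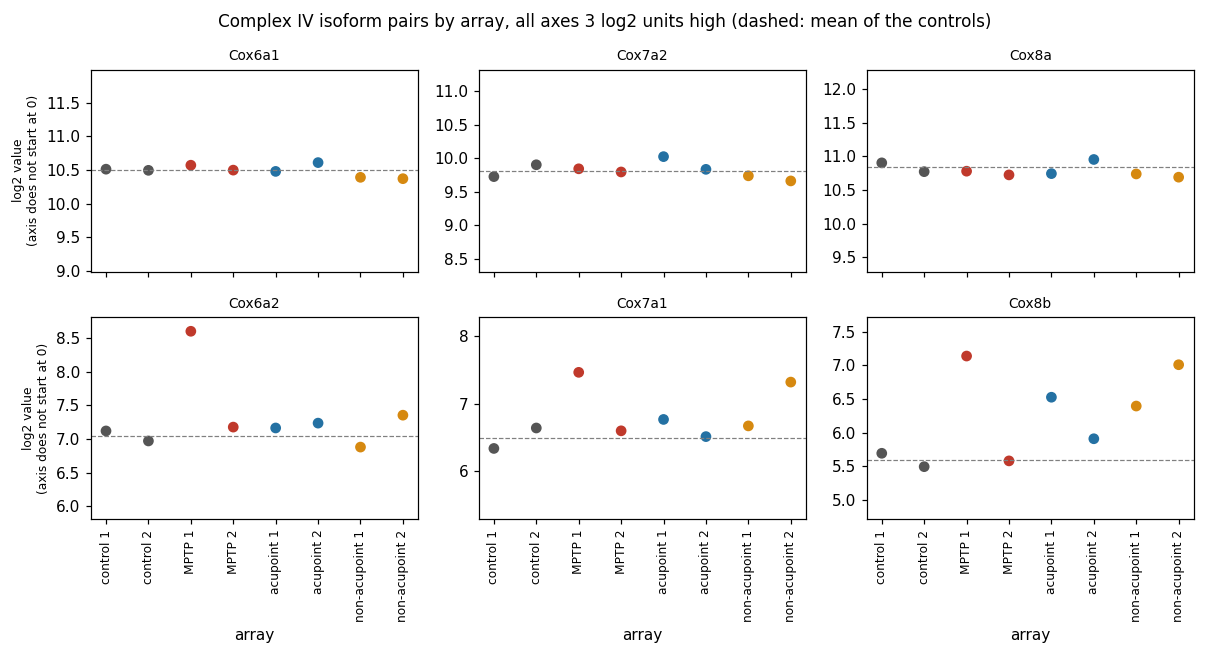
Log2 values on the 8 arrays for the common (upper row) and muscle (lower row) forms of 3 complex IV subunits, 1 point per array, with the mean of the controls dashed and all axes 3 log2 units high. Cox6a1, Cox7a2 and Cox8a stay near the dashed line, while Cox6a2 stands out in MPTP mouse 1 (8.60), Cox7a1 in MPTP mouse 1 (7.47) and non-acupoint mouse 2 (7.32), and Cox8b on those and 2 further arrays.

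The arrays with high muscle forms were also arrays with high markers of neighbouring tissue. Ttr, the transthyretin of choroid plexus, read 8.63 and 8.88 in controls, 13.39 and 8.12 in MPTP, 13.42 and 9.98 in acupoint and 13.20 and 13.49 in non-acupoint mice, and Kcnj13, its potassium channel, 5.34 and 5.45, 10.13 and 5.06, 10.23 and 5.60, and 10.01 and 10.95. The 4 arrays with the highest Cox8b were the 4 with the highest Ttr. Tcf7l2, a factor of thalamic neurons, read 10.56 in MPTP mouse 1 and 9.77 in non-acupoint mouse 2 against 7.51 and 7.59 in controls, and those 2 arrays had the highest Cox7a1. With the mean of the choroid plexus markers as a covariate, an alternative added after the data were seen, the Cox8b change was 0.246 for MPTP, -0.008 for acupoint and -0.132 for non-acupoint mice against control. With the thalamus, septum and pallidum markers as covariate instead it was 0.377, 0.444 and 0.578. For Cox6a2 after MPTP these covariates gave 0.504 and 0.534.

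**Figure D4:**
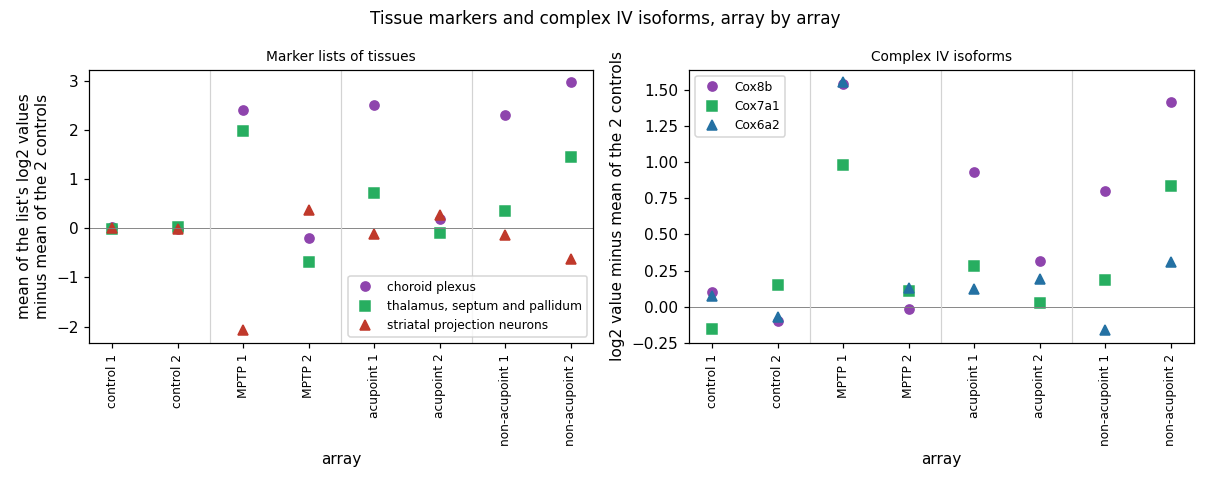
Left, the mean log2 value of the choroid plexus (circles), thalamus, septum and pallidum (squares) and striatal projection neuron (triangles) markers on each array minus the mean of the controls; right, the same difference for Cox8b, Cox7a1 and Cox6a2. Choroid plexus markers lie more than 2 above the controls on 4 arrays, which are the 4 highest for Cox8b, and MPTP mouse 1 combines the highest thalamus, septum and pallidum markers (1.99) with the lowest projection neuron markers (-2.08).

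Without MPTP mouse 2, whose choroid plexus markers were 0.19 below the controls, limma called 3 members for MPTP against control at an adjusted p under 0.05, namely Cox6a2 (1.56, SE 0.19, adjusted p = 0.00656), Cox5a (0.573, SE 0.11, adjusted p = 0.0242) and Cox8b (1.54, SE 0.31, adjusted p = 0.0257). MPTP mouse 1 then stood alone for its group and was assumed to vary like the others, and 9.86% of all probe sets were called. Cox6a2 was then also called for acupoint against MPTP (-1.40, adjusted p = 0.0104, with 8.9% of all probe sets called) and non-acupoint against MPTP (-1.48, adjusted p = 0.013, with 4.86% called). Without MPTP mouse 1, Cox8b differed by -0.014 and Cox6a2 by 0.132 from control.

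Complex V, the ATP synthase, had a catalytic head of narrow span. Atp5a1 spanned 12.42 to 12.55, Atp5b 12.51 to 12.72 and Atp5c1 11.997 to 12.128 over the 8 arrays, these being the alpha, beta and gamma subunits, and Atp5o, which ties the head to the outer stalk, 9.53 to 9.77. The small subunits of the central stalk spanned more. Atp5d, the delta subunit, read 11.08 and 11.02 in controls, 11.35 and 11.17 in MPTP, 10.99 and 11.13 in acupoint and 10.86 and 10.99 in non-acupoint mice, with non-acupoint against MPTP at -0.33 (SE 0.11, limma unadjusted p = 0.0214, adjusted p = 0.722). Atp5e, the epsilon subunit, read 8.60 and 8.62 in controls and 8.82 and 9.04 in MPTP mice (0.32, SE 0.13, unadjusted p = 0.0487). It was higher in MPTP mouse 2, whereas 63 of 81 members (77.8%, against 53.4% of all genes) were higher in MPTP mouse 1.

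Atp5md, a small membrane subunit that helps hold ATP synthase dimers, gave the smallest unadjusted p of all members. It read 11.93 and 12.07 in controls, 12.002 and 12.012 in MPTP, 12.36 and 12.20 in acupoint and 11.88 and 11.82 in non-acupoint mice. The acupoint arrays were above all 6 others and the non-acupoint arrays below all 6 others. Acupoint minus non-acupoint was 0.43 (SE 0.10, limma unadjusted p = 0.0042, adjusted p = 0.964), and its other 2 probe sets gave 0.36 and 0.43 (unadjusted p = 0.0159 and 0.0096). Against MPTP the acupoint mice were 0.27 higher (unadjusted p = 0.0329) and against control 0.28 higher (unadjusted p = 0.0302). The mean of the choroid plexus markers stood 2.31 or more above the controls in acupoint mouse 1 and both non-acupoint mice and 0.19 above in acupoint mouse 2, and with it as covariate the difference between sites was 0.46.

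The 3 genes for the c subunit of the proton ring, which encode the same mature protein, were read separately. Atp5g1 read 9.58 and 9.52 in controls, 9.94 and 9.50 in MPTP, 9.41 and 9.59 in acupoint and 9.56 and 9.65 in non-acupoint mice, with overlapping groups (MPTP against control 0.16, SE 0.16, limma unadjusted p = 0.328). Atp5g2 read 10.40 and 10.45 in controls, 10.26 and 10.21 in MPTP, 10.17 and 10.32 in acupoint and 10.18 and 10.10 in non-acupoint mice. Atp5g3 read 11.33 and 11.35 in controls, 11.09 and 11.09 in MPTP, 11.24 and 11.16 in acupoint and 11.31 and 11.11 in non-acupoint mice. All 6 MPTP-treated arrays were below both controls for Atp5g2 and Atp5g3. MPTP against control was -0.25 for Atp5g3 (SE 0.10, limma unadjusted p = 0.0464, adjusted p = 0.933) and -0.19 for Atp5g2 (SE 0.099, unadjusted p = 0.101), and non-acupoint against control was -0.28 for Atp5g2 (SE 0.099, unadjusted p = 0.0244, adjusted p = 0.768). The 3 probe sets of Atp5g2 gave -0.284, -0.262 and -0.309 in that last comparison. Atp5j2, subunit f of the membrane part, was 10.77 and 10.63 in controls and 11.05 and 10.95 in MPTP mice (0.30, SE 0.13, unadjusted p = 0.047).

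**Figure D5:**
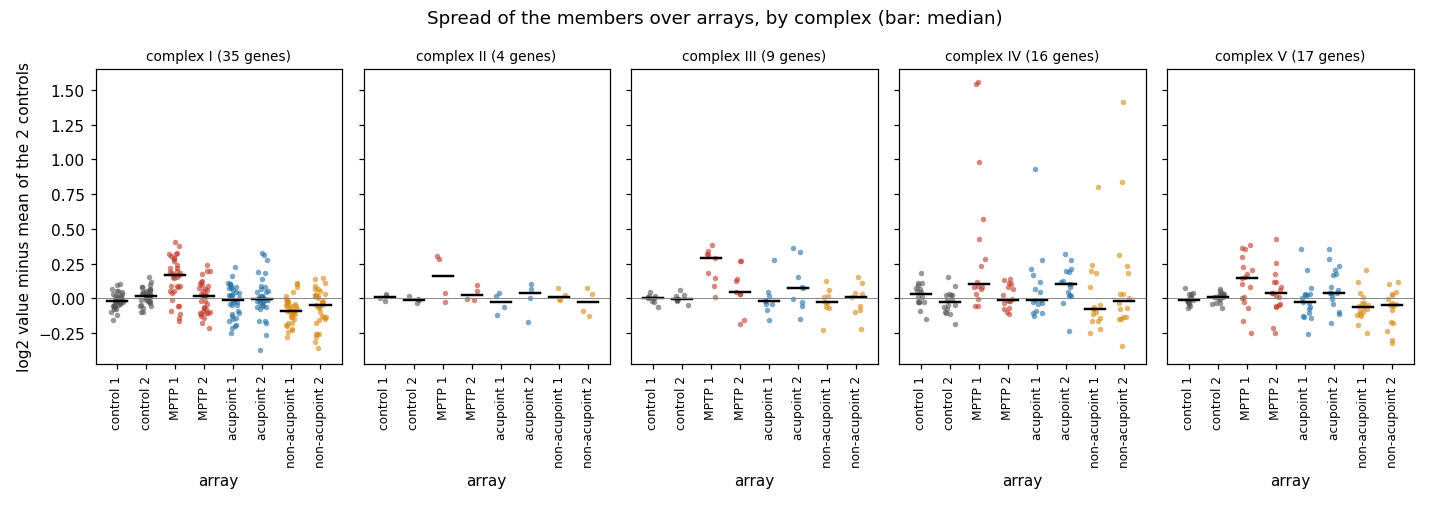
Each point is 1 member on 1 array, as log2 value minus the mean of the 2 controls, in 5 panels by complex, with a bar at the median. The bar of MPTP mouse 1 is the highest or joint highest in every panel (0.104 in complex IV to 0.292 in complex III), and the points above 0.75 are Cox6a2, Cox7a1 and Cox8b in complex IV.

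Members that separated every MPTP-treated mouse from both controls were about as frequent as among all genes. There were 4 above (Ndufc1, Uqcrb, Uqcrq and Cox5a; 4.94% against 3.74% of all genes) and 3 below (Ndufa8, Atp5g2 and Atp5g3; 3.7% against 3.43%). The gap between these 6 arrays and the controls was 0.114 for Cox5a, 0.078 for Atp5g2, 0.073 for Ndufc1, 0.036 for Ndufa8 and 0.026 for Atp5g3, and 0.005 or less for Uqcrq and Uqcrb.

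For 16 members with several probe sets, the sets of a gene had 1 sign in 12 to 15 of the 16 genes, depending on the comparison. The sets of Atp5l (6), Atp5h (3) and Uqcrb (3) were alike in sign for MPTP against control, whereas those of Uqcr11 differed in sign there (0.21 and -0.080).

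Genes that build and serve the chain were also without a call at an adjusted p under 0.05. Of 43 assembly factors, which put the complexes together, 40 were measured, and at an unadjusted p under 0.05 there was 1 higher (2.5%) and 0 lower for MPTP against control, beside 2.11% and 1.89% of all probe sets. Acupoint against MPTP gave 0 higher and 4 lower (10.0%), beside 1.04% and 2.56% of all probe sets, and non-acupoint against MPTP gave 0 higher and 5 lower (12.5%), beside 3.51% and 3.07%. Both share the MPTP arrays, and 3 genes (Timmdc1, Uqcc3 and Atpaf2) were in both counts. The counts were 1 and 0 for acupoint against control (0.618% and 1.3% of all probe sets), 1 and 2 for non-acupoint against control (3.76% and 2.3%), and 1 and 0 between the needling sites (1.1% and 2.12%). Timmdc1, an assembly factor of complex I, read 8.29 and 8.14 in controls, 8.68 and 8.48 in MPTP, 8.24 and 8.22 in acupoint and 8.28 and 8.34 in non-acupoint mice. Both MPTP arrays were above all others (0.36, SE 0.11, limma unadjusted p = 0.0135, adjusted p = 0.933), and acupoint against MPTP was -0.35 (unadjusted p = 0.0161). Uqcc3, an assembly factor of complex III, read 8.31 and 8.27 in controls, 8.40 and 8.55 in MPTP, 8.10 and 8.05 in acupoint and 8.07 and 7.96 in non-acupoint mice. All 4 needled arrays were below all others, and non-acupoint against MPTP was -0.46 (SE 0.10, limma unadjusted p = 0.0026, adjusted p = 0.593).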

How the data were processed

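RNA from 8 striata, 1 array per mouse, was measured on Affymetrix whole-transcript arrays from 300 ng of total RNA. The authors used RMA in Affymetrix Expression Console, per the submitters' processing notes. RMA corrects background, quantile-normalises the arrays and summarises probes, so that a shift shared by most genes is not visible. The deposited table holds 1 log2 value per probe set and array, used as it stands, with array medians between 6.02 and 6.12. The genome build is not given in the sources used here. All columns belong to samples of the series.

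Of 35557 probe sets, 21789 had 1 gene symbol in the platform table, 1621 several and 12147 none. Those with 1 symbol and a mean of at least 5.25 were tested (16335). All 81 members matched a RefSeq gene by ID with the same symbol. Their promoter windows came from RefSeq (GRCm38.p6). Another 6 probe sets with a matching symbol among several were not used.

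A linear model held the 4 groups. It was fitted to the 8 arrays by limma 3.58.1 (R 4.3.3; lmFit, then eBayes; 4 residual and 2.94 prior degrees of freedom), with Benjamini-Hochberg adjustment over all probe sets tested in a comparison. The script was tested on simulated data. The labels describe separate mice, and their number limits the precision. Lists and genes followed a naming rule: members at an unadjusted p under 0.05 in any comparison, the largest changes per complex, a fixed catalytic core, tissue isoforms, the members at the level threshold, and up to 3 genes of each other list. The members and lists were chosen with earlier results of these data known. Alternatives were other filters, normalisations, probe set rules, fits and covariates, a replicate block and leaving out each array.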

Additional observations from a re-analysis of the deposited data

How the results depend on the processing

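With 2 mice per group, changes of the size seen in most members are within reach of 1 array. No member was called at an adjusted p under 0.05 under any alternative other than leaving out an array. When arrays were left out in turn, 0 to 3 members were called for MPTP against control, 0 to 1 for acupoint against MPTP and 0 to 1 for non-acupoint against MPTP, the highest of each without MPTP mouse 2. The members' median change then ran from 0.021 (without MPTP mouse 1) to 0.157 (without MPTP mouse 2) for MPTP against control, from -0.155 to 0.012 for acupoint against MPTP, and from -0.211 to -0.072 for non-acupoint against MPTP. With arrays centred on their medians, the median was -0.112 for non-acupoint against control and 0.144 for acupoint against non-acupoint, and with the choroid plexus covariate, chosen after seeing the data, it was -0.113 for non-acupoint against control. The median between the needling sites fell from 0.075 to 0.038 without acupoint mouse 2. The small median for acupoint against control (0.011) turned its sign without acupoint mouse 2 (-0.016) and with the choroid plexus covariate (-0.032), and ran from 0.003 to 0.035 under the others. For acupoint against MPTP (-0.075) it was -0.044 with median centring, -0.045 with quantile normalisation and -0.045 without acupoint mouse 1, and for non-acupoint against control (-0.054) it was -0.096 with the thalamus covariate. These moves were each less than 0.052, the SD between mice, and the medians not named here stayed within 1.5 times their value.

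Counts at an unadjusted p under 0.05 moved far more. For MPTP against control (5), they were 2 with no filter, 2 with median centring, 2 with quantile normalisation, 8 with a trended prior, 1 with the arrays of the 2 groups only, and 0 to 23 with arrays left out. For acupoint against control (1), they were 2 at a mean of 6 or more, 0 with the mean of the gene's probe sets, 2 with a trended prior, 2 with the thalamus and 3 with the choroid plexus covariate, 3 with 2 groups only, and 0 to 5 with arrays left out. For non-acupoint against control (2), they were 7 with median centring, 6 with quantile normalisation, 9 with the thalamus and 4 with the choroid plexus covariate, 6 with 2 groups only, and 0 to 5 with arrays left out. For acupoint against MPTP (3), they were 1 with 2 groups only and 1 to 14 with arrays left out. For non-acupoint against MPTP (4), they were 2 with no filter, 9 with median centring, 7 with a trended prior, 21 with the thalamus and 11 with the choroid plexus covariate, 0 with 2 groups only, and 0 to 26 with arrays left out. For acupoint against non-acupoint (5), they were 2 with no filter, 11 with median centring, 9 with quantile normalisation, 9 with the thalamus and 2 with the choroid plexus covariate, and 1 to 8 with arrays left out. The cause of these moves was not tested.

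The labels describe separate mice, so mouse numbers were not taken as pairs. The deviations of mouse 1 from the group means correlated between -0.493 and 0.403 over the 6 pairs of groups. With 2 mice per group, these values cannot show whether mice of the same number shared a batch. With the mouse number as a replicate block the counts were 0 for MPTP against control, 2 for non-acupoint against MPTP and 1 for acupoint against non-acupoint. The medians could not change, as each group holds 1 mouse of each number. Several alternatives leave a gene's change as it is by design, namely the filters, the trended prior, the replicate block and the 2 groups only. The same holds for leaving out an array of a group outside the comparison. Of 522 values for single genes under alternatives, with these included, 511 kept their direction. The 11 that did not were Cox8b after MPTP (-0.014 without MPTP mouse 1, up to 1.544 without MPTP mouse 2), the acupoint changes of Cox6a2 (-0.259), Cox7a1 (-0.199) and Cox8b (-0.008) and the non-acupoint changes of Cox6a2 (-0.74), Cox7a1 (-0.18) and Cox8b (-0.132) with the choroid plexus covariate, Cox7a1 in acupoint mice (-0.001 without control mouse 1, up to 0.304 without control mouse 2), and Cox6a2 in non-acupoint mice (-0.352 with the thalamus covariate, -0.003 without control mouse 2, and -0.166 without non-acupoint mouse 2, up to 0.309 without non-acupoint mouse 1).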

Other observations

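Other genes of mitochondrial energy supply were measured beside the subunits, and none had an adjusted p under 0.05 in limma. Of 10 measured genes for electron carriers and ubiquinone synthesis, 9 were above 0 for MPTP against control (median 0.10), and 9 of 10 were below 0 in each needled group against MPTP (medians -0.146 and -0.138). All genes had medians of 0.017, -0.041 and -0.008 in these comparisons, with 54.8%, 39.3% and 48.1% above 0. Cycs, the cytochrome c that links complexes III and IV, read 10.61 and 10.71 in controls, 10.99 and 10.57 in MPTP, 10.89 and 10.80 in acupoint and 10.48 and 10.74 in non-acupoint mice, with MPTP mouse 1 highest again. Of 13 citric acid cycle genes, 1 had an unadjusted p under 0.05 in any of the 6 comparisons. It was Idh2, the mitochondrial isocitrate dehydrogenase, at 0.23 for non-acupoint against MPTP (SE 0.093, limma unadjusted p = 0.0444, adjusted p = 0.742), where 3.51% of all probe sets were higher at this threshold.

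Regulators of mitochondrial biogenesis (14 measured) had no unadjusted p under 0.05. Nrf1 spanned 6.96 to 7.10 and Tfam, which packages and transcribes mitochondrial DNA, 7.48 to 7.84. Ppargc1a, a coactivator of mitochondrial genes, read 8.44 and 8.56 in controls, 9.12 and 8.46 in MPTP, 8.55 and 8.28 in acupoint and 8.63 and 8.83 in non-acupoint mice, so that MPTP mouse 1 and non-acupoint mouse 2 were highest. Subunits encoded by mitochondrial DNA were read from probe sets named COX2 and ND3, noticed after the values were seen, 2 each, and their changes lay between -0.131 and 0.161. Maob, the oxidase that converts MPTP, read 9.29 and 9.42 in controls, 9.94 and 9.26 in MPTP, 9.86 and 9.13 in acupoint and 9.40 and 10.15 in non-acupoint mice.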
